A study of Caenorhabditis elegans with 4 samples.

Results

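The comparison described here set 2 of 4 RNA libraries against each other, both from adult Caenorhabditis elegans kept in normoxia, that is at ambient oxygen. All 4 libraries came from the wild-type strain N2, grown on RNAi media at 20 °C, and were made from total RNA of whole animals. One library of the pair came from control animals (control RNAi normoxia), and the other from animals fed elt-2 RNAi (elt-2 RNAi normoxia). The normoxic period began at day 1 of adulthood and lasted 36 h, in parallel with the remaining libraries, control RNAi hypoxia and elt-2 RNAi hypoxia, which spent it at 0.5% oxygen in nitrogen. Members of the comparison are genes: of 19852 loci, 10338 named a single gene, carried no failed or excessive-data status and had a mean of at least 1 RPKM over the normoxia pair. RPKM counts reads relative to transcript length and to all mapped reads of the library. Each group is a single library, so no difference within the normoxia pair has a replicate check or a test.

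RNAi by feeding gives worms bacteria that make double-stranded RNA of a chosen gene, which directs the worm to destroy its matching transcripts. elt-2 encodes a GATA zinc finger transcription factor, named for the DNA letters such factors recognise, that is made in the intestine from the embryo through adult life. The worm intestine is a tube of large epithelial cells that digests bacteria, stores fat, makes yolk, takes up metals and haem, and secretes antimicrobial proteins, and ELT-2 is known to activate many of the genes for these tasks. In RNA of whole animals, fewer intestinal cells and less of a transcript per cell cannot be told apart.

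The targeted gene went against its label. In RPKM, elt-2 (chromosome X, 10481180 to 10483367, ce10) was listed at 4.81 in control RNAi normoxia and 14.3 in elt-2 RNAi normoxia, and at 15.2 in control RNAi hypoxia and 23.8 in elt-2 RNAi hypoxia. At each oxygen level the library labelled elt-2 RNAi was the higher of its pair, with a log2 ratio of 1.40 in normoxia. Whether reads of the double-stranded RNA in the food enter these values was not tested. Every direction below therefore rests on the labels, and is given as the library labelled elt-2 RNAi against control. The other GATA factors of the intestine were closer to control: elt-7, which acts beside ELT-2, was at 5.38 and 5.96 RPKM, and elt-4 at 1.42 and 0.640. The embryonic gut specification genes end-1 (0.146 and 0.322 RPKM) and end-3 (0.934 and 1.19 RPKM) were low in both libraries, and med-1 and med-2 were listed at 0 in all 4.

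The normoxia pair differed mainly by genes with lower values under the elt-2 RNAi label. In total 383 genes were at least 2-fold lower (3.7% of the 10338 compared) and 130 were at least 2-fold higher (1.26%), on the log2(RPKM + 1) scale used for all ratios below. That scale understates differences of genes with low values. Counts of each gene list below are read against the shares of 3.7% lower and 1.26% higher. The median log2 ratio of all genes was 0.04, and 86.8% of genes lay within 0.5 of 0. Lower genes had a median level of 12.8 RPKM in control and 2.87 in the library labelled elt-2 RNAi, and together held 3.32% and 0.847% of the summed RPKM of compared genes. Higher genes were mostly weakly expressed, with median levels of 1.73 and 7.78 RPKM. Among 1867 genes whose mean reached 100 RPKM, 36 were lower and 1 was higher, the epidermal peptide gene nlp-34.

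**Figure D1:**
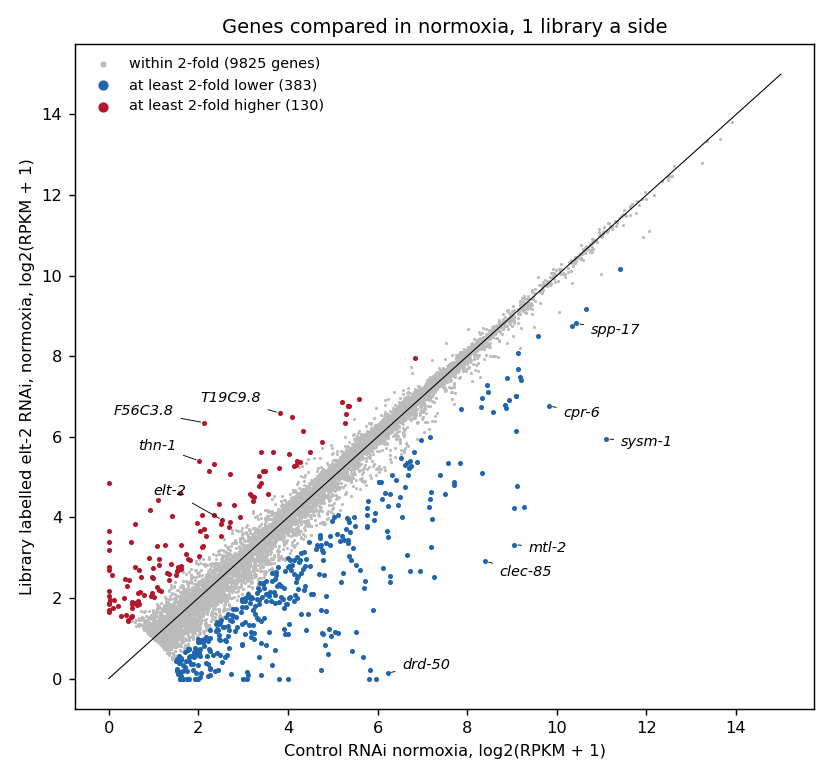
Level of each of the 10338 compared genes in control RNAi normoxia (horizontal axis) and in its elt-2 RNAi counterpart (vertical axis), both as log2(RPKM + 1), with equality as the diagonal. The 383 lower genes (blue) reach far below the diagonal at high control levels, while the 130 higher genes (red) lie mostly at low levels.

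Among the most strongly lower genes were intestinal effectors of metal binding, immunity and detoxification. mtl-2, a metallothionein that binds zinc and cadmium, lies on chromosome V (14018257 to 14018628, ce10). It was at 529 RPKM in control and 9.01 in the library labelled elt-2 RNAi. The immune effector reporter sysm-1, deposited as T24B8.5 (chromosome II, 9082621 to 9083081), was at 2203 and 60.8 RPKM. clec-85, a C-type lectin of a family of sugar-binding secreted proteins, was at 337 and 6.52 RPKM. In each of these genes the library labelled elt-2 RNAi was also the lower one in hypoxia, with log2 ratios of -7.01, -4.57 and -5.37.

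Further genes among the 20 lowest ratios, taken over the 7782 genes whose mean reached 5 RPKM, had less uniform roles. The lowest ratio of all was that of drd-50 (deposited as F49F1.1), at 74.0 and 0.101 RPKM. ech-7, of the enoyl-CoA hydratase family of fatty acid oxidation, was at 50.1 and 0.452 RPKM. The cytochrome P450 gene cyp-35A3 was at 25.6 and 0.167 RPKM, and spp-1, a pore-forming saposin-like antimicrobial protein, at 45.2 and 1.23. dod-21, named as acting downstream of the FOXO factor DAF-16, was at 55.4 RPKM in control and was listed at 0 in the library labelled elt-2 RNAi, as was Y39G8B.9 (15 RPKM in control). Its neighbour cld-1 (deposited as C32H11.9) was at 55.6 and 0.15 RPKM. The remaining genes of the 20 were clec-67, clec-209, F56A4.2, R10H10.3, C17H12.8, C17H12.6, spp-18, K08D8.5, C14C6.5 and a copy of F46A8.7, with ratios from -5.96 to -4.04. clec-209 and F56A4.2 had closely similar values in all 4 libraries, and no source used here says how reads shared by near-identical genes were counted. Of these 20 genes, 10 lie on chromosome IV and 19 were at least 2-fold lower in the hypoxia pair too, the exception being F46A8.7.

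Many genes for the enzymes of digestion and lysosomes, and for saposin-like proteins, were lower under the elt-2 RNAi label. Over 7 lists of proteases, lysozymes, saposin-like proteins, lipases, phosphatases, nucleases and glycosidases, 84 genes were compared, of which 33 were at least 2-fold lower (39.3%, against 3.7% of all genes) and 5 higher. Their median log2 ratio was -0.52, and their summed level was 17551 RPKM in control and 9139 in the library labelled elt-2 RNAi. Saposin-like proteins, which are not enzymes, gave 18 of the 84 genes, 9 of the 33 lower ones, and 7326 and 3011 RPKM of those sums. Members of the 7 lists left out had a mean under 1 RPKM in the pair. The 4 compared chitinase genes, outside these lists, lay within 2-fold.

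Of 13 cathepsin B- and L-like cysteine protease genes, 11 were compared, 5 were lower by 2-fold or more and 2 higher. Over all compared genes, 3.7% were lower and 1.26% higher. The gut cysteine protease gene cpr-1, which depends on GATA sites in its promoter, was at 27.3 RPKM in control and 0.775 in the library labelled elt-2 RNAi. In hypoxia it was at 209.9 and 0.526 RPKM, the lowest ratio of the family in that pair. cpr-6, the most abundant member in control, was at 906 and 108 RPKM in normoxia. cpr-5 (33.5 and 1.19 RPKM), cpz-2 (26 and 1.21) and cpr-8 (14 and 2.35) were also lower.

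The family did not move as a block. The broadly used cathepsin L gene cpl-1 was at 655 and 615 RPKM, and the cathepsin Z gene cpz-1 at 204 and 202. tag-196 was at 20.7 and 16.5 RPKM and cpr-9 at 381 and 256. By contrast cpr-3 was at 17.3 RPKM in control and 41 in the library labelled elt-2 RNAi, and cpr-4 at 47.4 and 121. cpr-3 was higher in the hypoxia pair as well (57.3 and 334 RPKM), whereas cpr-4 was not past 2-fold there (89.6 and 96.1 RPKM).

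Aspartic proteases, the cathepsin D-like enzymes of gut and lysosomes, were similar: of 16 loci, 9 were compared, 6 were lower and 1 higher. asp-2 was at 322 and 33.6 RPKM, asp-3 at 541 and 70.1, asp-13 at 141 and 18.1, and asp-5 at 488 and 119. asp-1, a gut-specific member, was at 760 and 360 RPKM, just past 2-fold, and asp-8 was at 3.10 and 0.469. asp-4 was at 414 and 253 RPKM, inside the threshold. The most abundant member in normoxia, asp-6, was at 839 and 885 RPKM, and asp-12 was the higher one at 8.43 and 21.7.

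**Figure D2:**
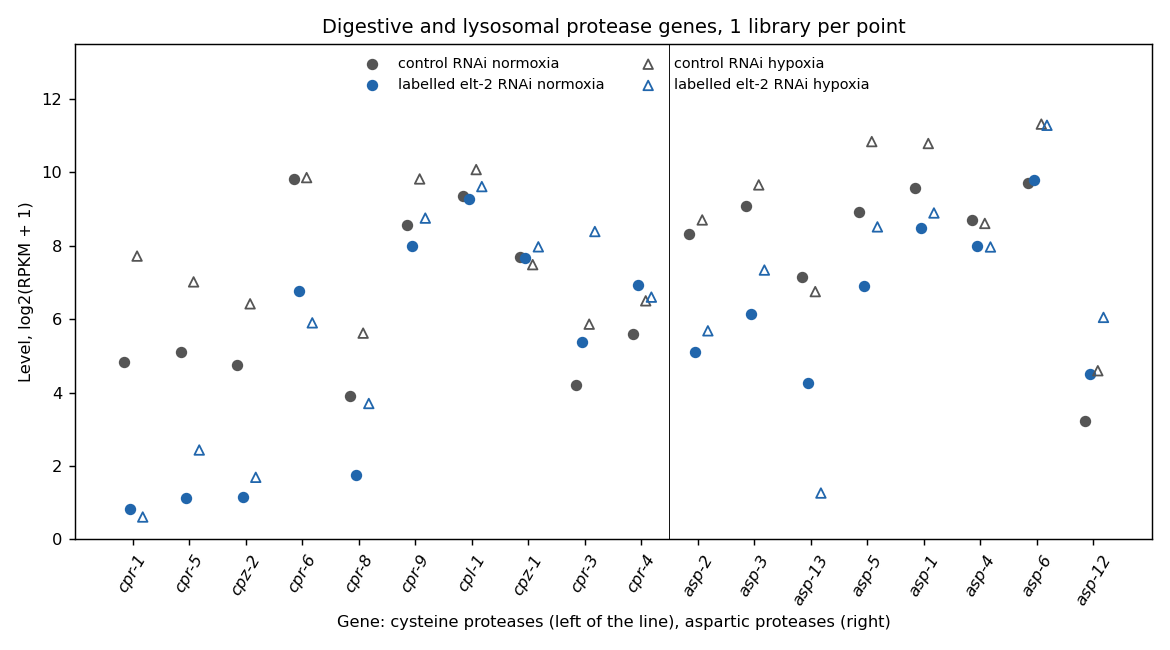
Level of 18 cysteine and aspartic protease genes as log2(RPKM + 1), 1 point per library, with circles for normoxia, triangles for hypoxia, grey for control and blue for libraries labelled elt-2 RNAi. cpr-1, cpr-5, cpz-2 and asp-2 stand several units lower in both blue libraries, cpl-1, cpz-1 and asp-6 nearly coincide in normoxia, and cpr-3 and asp-12 are higher in blue.

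Saposin-like genes encode small membrane-active proteins, several of them antibacterial pore formers of the gut. Of 25 loci, 18 were compared, 9 were lower and 1 was higher, with a median log2 ratio of -1.11. spp-18 was at 123 and 5.34 RPKM, spp-4 at 146 and 8.62, and spp-8 at 73.7 and 18.5. Abundant members had smaller ratios: spp-5 was at 2740 and 1142 RPKM, spp-17 at 1386 and 450, and spp-14 at 1286 and 427. The single higher member, spp-9, was at 0.506 and 13.4 RPKM in normoxia, but was nearly unlisted in hypoxia (0 and 0.245).

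Among 8 compared lysozyme genes, whose products break bacterial cell walls, lys-4 (29 and 1.35 RPKM) and lys-1 (470.3 and 175) were at least 2-fold lower. lys-7 (148 and 82.6 RPKM), lys-2 (392 and 255) and the invertebrate-type ilys-5 (1294 and 906) lay below control but inside 2-fold, and lys-8 was at 404 and 351. Lysosomal lipases gave lipl-2 at 15.6 and 3.06 RPKM and lipl-5 at 350.5 and 138, while lipl-1 (8.78 and 8.19 RPKM) and lipl-7 (15.9 and 13.8) were near control. Of 15 compared acid phosphatase and nuclease genes only pho-11 (147 and 14.6 RPKM) and pho-13 (4.14 and 0.147) were lower and pho-4 (2.06 and 5.91) was higher. The gut acid phosphatase pho-1 was at 21.9 and 15.7 RPKM.

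Of 19 compared glycosidases and other lysosomal hydrolases, 7 were lower, none was higher and 12 lay within 2-fold. Some of the lower ones break down sphingolipids. The glucocerebrosidase homologue gba-4 was at 73.2 and 11.7 RPKM, and gba-1 at 12.8 and 5.85. The acid ceramidase genes asah-2 and asah-1 were at 53.1 and 12.8 RPKM and at 33.2 and 10.9, and the acid sphingomyelinase asm-3 at 12.1 and 2.70. asm-2, another acid sphingomyelinase gene, was at 5.69 and 11.8 RPKM, within 2-fold. The beta-galactosidase gene bgal-2 (17.3 and 4.60 RPKM) and the alpha-glucosidase-related aagr-1 (43.4 and 15.1) completed the lower members.

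Genes of pathogen defence differed by class. CUB-like and dod genes are a group of secreted proteins induced by infection or regulated by insulin signalling. Of 20 such genes, 18 were compared, with a median log2 ratio of -1.51. Among them 10 were lower and 2 higher, against 3.7% and 1.26% of all genes. C32H11.4 was at 76.6 and 4.80 RPKM, dod-22 at 27.8 and 3.12, and dod-23 at 563 and 206. The infection-induced irg-4 was at 10.9 and 1.25 RPKM, and irg-5 at 26.8 and 4.95. Not every member was lower in normoxia: dod-24, the next gene to dod-21, was at 294 and 220 RPKM. In the hypoxia pair, however, dod-24 was at 363 and 58.1 RPKM, a log2 ratio of -2.62. In normoxia dod-17 (26 and 57.4 RPKM) and F55G11.8 (37.7 and 80.6) were higher. In the hypoxia pair 8 of the 18 were lower and 1 was higher.

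Many of these genes are clustered on chromosome IV. In a window from 50 kb before the start of dod-21 (12936728) to 80 kb past its end, 21 of 34 loci were compared, of which 8 were lower and 3 higher. K08D8.5, C32H11.4, cld-1 and dod-21 on the left of the window had the lowest ratios, from -5.82 to -3.74. Genes of opposite direction lay interleaved on the right: dod-22, F55G11.2 and mbug-1 (deposited as F55G11.4) were lower, and F55G11.6, F55G11.8 and dod-17 higher. Across the genome, 57 of the 383 lower genes (14.9%) had another lower gene as their nearest compared gene, against 3.44% of all compared genes.

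**Figure D3:**
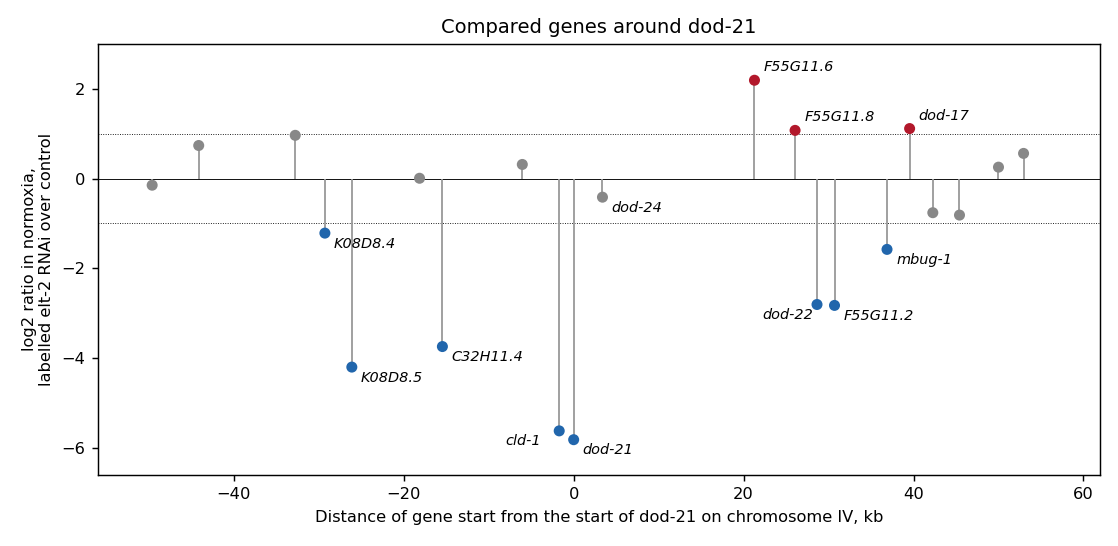
log2 ratio in normoxia of the 21 compared genes around dod-21 against the distance of each gene's start from that of dod-21, in kb, with dotted lines at 2-fold. Left of dod-21 all genes past 2-fold are lower (blue), while on its right lower and higher genes (red) are interleaved. In this pair dod-24 lies inside 2-fold beside dod-21.

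The list of 47 infection response genes joins the irg and pals genes with singly named genes, among them sysm-1, C17H12.8 and K08D8.5. Of these, 21 were compared, 7 were lower and none was higher, against 3.7% and 1.26% of all compared genes. The 7 include sysm-1 and no pals gene. They also include irg-4 and irg-5, already counted above among the CUB-like and dod genes. C17H12.8 was at 551 and 26.5 RPKM, K08D8.5 at 58.6 and 2.24, the mucin-like mul-1 at 9.05 and 1.79, and irg-8 at 322 and 124. irg-7, expressed in the intestine, was at 141 and 72.0 RPKM, inside 2-fold. The genes of the p38 kinase cascade, which signals pathogen exposure to such effectors, were near control: all 9 lay within 2-fold, among them the kinase genes pmk-1 (22 and 18.1 RPKM), sek-1 (13.2 and 13.6) and nsy-1 (14.2 and 13.9), and the transcription factor atf-7 (121 and 125).

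C-type lectins form a large family, of which 58 of 255 loci were compared, with a median log2 ratio of -0.16. In it 15 were lower and 5 higher, against 3.7% and 1.26% of all genes. Besides clec-85, clec-209 and clec-67, the abundant clec-50 (580 and 178 RPKM), clec-41 (209 and 28.4) and clec-63 (561 and 271) were lower. clec-4 was the highest ratio of the family at 3.70 and 34.6 RPKM, and clec-54, clec-72, clec-232 and clec-233 were higher at lower levels.

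Epidermal antimicrobial peptides, which are made mainly in the skin, showed the opposite direction at small size. Of 17 compared, 3 were higher and none was lower, against 1.26% and 3.7% of all genes, with a median log2 ratio of 0.52. cnc-6 was at 10.2 and 34.3 RPKM, nlp-30 at 2.31 and 7.51, and nlp-34 at 114 and 248, whereas nlp-29 was at 108 and 191, inside 2-fold. The thaumatin-like genes thn-1 (3.07 and 41.3 RPKM) and thn-2 (39.8 and 107), related to plant defence proteins, were higher. In hypoxia thn-1 was at 3.98 and 245 RPKM, the highest ratio in that pair among genes past 2-fold here, but thn-2 was at 49.4 and 29.

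**Figure D4:**
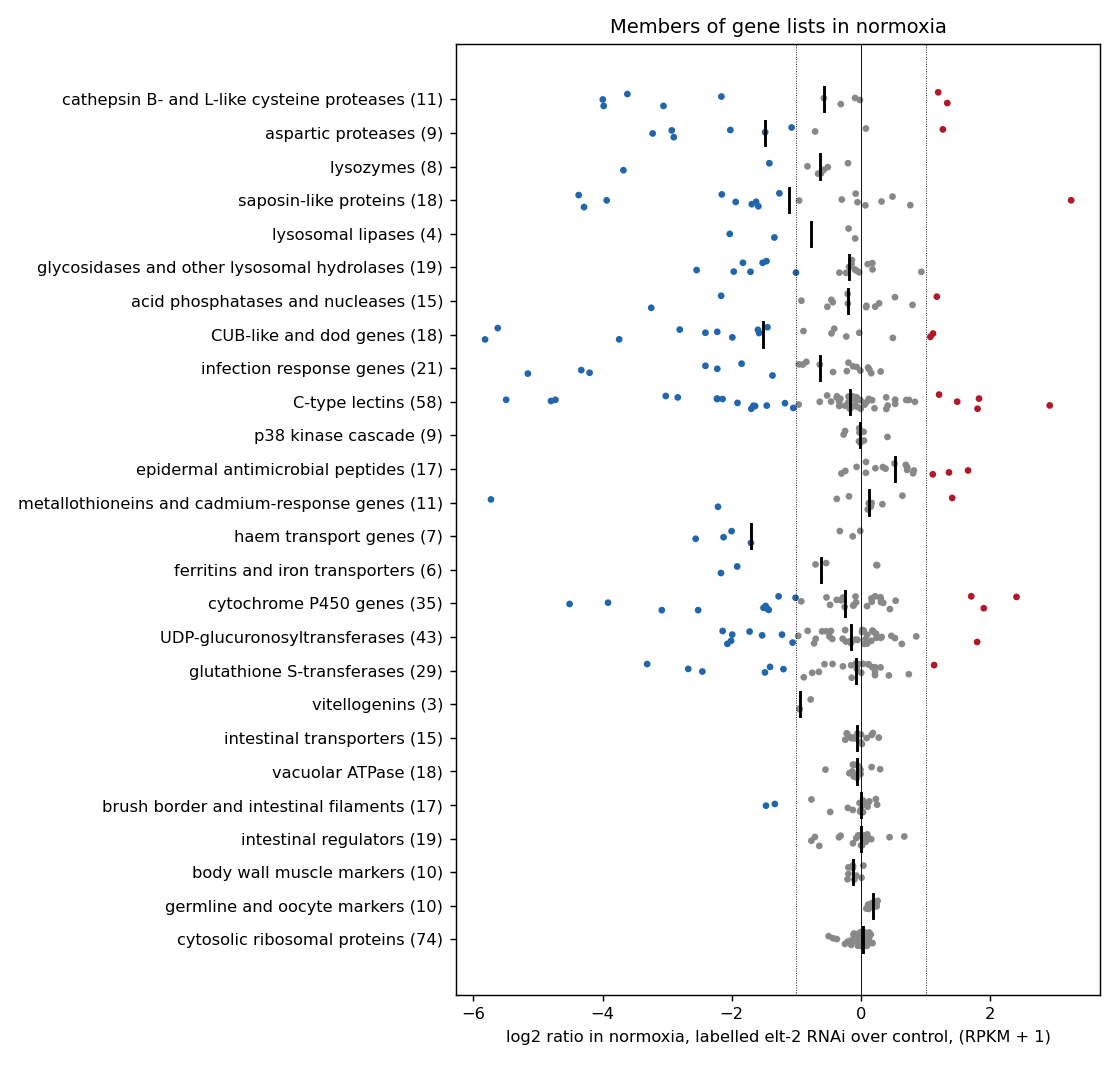
log2 ratio in normoxia of every compared member of 26 gene lists, 1 point per gene, with the list median as a black bar, dotted lines at 2-fold and the number compared in brackets. Proteases, saposin-like proteins, CUB-like and haem genes hold many points left of the dotted line, while transporters, vacuolar ATPase, muscle, germline and ribosomal lists stay close to 0.

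Some metal handling genes were past 2-fold, a few of them by a wide margin. Of 11 compared metallothionein and cadmium-response genes, 2 were lower and 1 was higher, and of 6 ferritin and iron transport genes 2 were lower. Over all compared genes, 3.7% were lower and 1.26% higher. mtl-1, the second metallothionein gene, was at 188 and 39.8 RPKM, while the other cadmium-response genes were within 2-fold except cdr-4, which was higher at 39.7 and 107. The ferritin ftn-1, an intestinal iron store, was at 3.8 and 0.0692 RPKM, and the ferroportin homologue fpn-1.2 at 3.18 and 0.107. The second ferritin ftn-2 was at 344 and 405 RPKM, within 2-fold. All 16 compared zinc transporters lay within 2-fold.

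Of 7 compared haem transport genes, 4 were at least 2-fold lower, against 3.7% of all genes, with a median log2 ratio of -1.70. The haem importers hrg-1 (21.6 and 5.95 RPKM) and hrg-4 (14.7 and 2.59) were lower, as was hrg-3 (3.75 and 0.186), which carries maternal haem out of the intestine. hrg-7, an aspartic protease-like secreted signal of haem status, was at 145 and 23.8 RPKM. mrp-5, which exports haem from the intestine, was at 39.8 and 31.5 RPKM. In the hypoxia pair hrg-3 was at 59.8 and 37.4 RPKM, not past 2-fold, while hrg-1, hrg-4 and hrg-7 were.

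Detoxification families had members in both directions, with more of them lower than higher. Of 35 compared cytochrome P450 genes, 10 were lower and 3 higher, against 3.7% and 1.26% of all compared genes. The lower ones were led by the xenobiotic-inducible cyp-35 genes: cyp-35A2 was at 91.8 and 15.2 RPKM, cyp-35C1 at 30.2 and 1.07, and cyp-35A4 at 7.47 RPKM in control and listed at 0. cyp-13A6 (16.1 and 89.7 RPKM), cyp-13A5 (2.91 and 13.6) and cyp-34A9 (9.87 and 34.5) were higher. The cyp-35A and cyp-13A genes sit in tandem arrays of similar sequence.

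UDP-glucuronosyltransferases, which tag small molecules for excretion, had 8 lower and 1 higher of 43 compared, against 3.7% and 1.26% of all genes. ugt-22 was at 89.9 and 21.6 RPKM, ugt-23 at 39.8 and 9.24 and ugt-44 at 44.3 and 12.7, with ugt-61 higher at 19.2 and 69.4. Of 29 glutathione S-transferase genes, 6 were lower and 1 higher, set against the same shares. gsto-1 was at 11.5 and 0.263 RPKM, gst-6 at 15.2 and 1.55, gst-38 at 22.6 and 3.30, and gst-13 at 84.3 and 29.5. The higher one was gst-24, at 21.5 and 48.3 RPKM.

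Lipid genes were largely near control. Of 29 compared beta-oxidation genes, ech-7 and acox-1.2 (7.97 and 3.06 RPKM) were lower and cpt-4 (0.877 and 7.0) was higher, with a median log2 ratio of -0.00. None of 14 desaturase and elongase genes passed 2-fold, fat-7 (10.5 and 5.25 RPKM) and fat-6 (277 and 165) being the lowest. Among fatty acid and triglyceride synthesis genes, ads-1 was lower at 19.4 and 7.82 RPKM, and dgat-2, which makes triglyceride, was higher at 9.24 and 31.8. The lipid binding gene lbp-8 was at 2.49 and 0.473 RPKM. A binder of fatty acids and retinol, far-3, was higher at 40.1 and 107. In the hypoxia pair far-3 was at 5.08 and 3.62 RPKM, lower under the label but inside 2-fold.

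Yolk protein genes, whose transcripts are among the most abundant of the adult intestine, were below control without reaching 2-fold. vit-3 was at 3871 and 1997 RPKM, vit-4 at 4232 and 2195, and vit-1 at 723 and 421, vit-3 and vit-4 being near-identical in sequence. The median log2 ratio of these 3 genes was -0.95 in normoxia but 0.05 in the hypoxia pair, where none passed 2-fold. vit-2, vit-5 and vit-6 carried the status HIDATA and were left out of the comparison. They were listed at 0 in control RNAi normoxia and in both hypoxia libraries. In elt-2 RNAi normoxia they were at 3159, 3176 and 4921 RPKM, so that their 0 elsewhere cannot be read as absence. dsc-4, the large subunit of the microsomal triglyceride transfer protein that loads lipid onto yolk lipoproteins, was at 18.6 and 2.03 RPKM.

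Other lower genes belong to no list and were chosen after their values were seen, for their level and known role. The tandem pud genes on chromosome V (2322037 to 2330929), named for proteins abundant in insulin receptor mutants, were all lower in this array. pud-2.1 was at 548 and 129 RPKM, pud-2.2 at 543 and 127, and pud-3 at 585 and 168. Single values of these near-identical copies are uncertain. The galectin lec-9 was at 209 and 26.9 RPKM, and lec-10 at 314 and 106. The lipid-binding polyprotein npa-1 was at 53.0 and 12.6 RPKM, and the CD36-like receptor gene scav-1 at 24.8 and 5.05.

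Several transporter and amino acid genes outside the lists were lower as well. The folate transporter family gene folt-2 was at 77.1 and 4.23 RPKM, and the SWEET sugar transporter gene swt-6 at 100.4 and 7.34. gldc-1 and gcsh-1, of the glycine cleavage system, were at 41.6 and 6.67 RPKM and at 25.3 and 10.8. The prolyl carboxypeptidase-like pcp-2 was at 20.3 and 1.31 RPKM. The ABC transporters do form a list, of which 30 were compared, 4 were lower, none was higher and the median log2 ratio was 0.01, against 3.7% lower among all genes. The lower ones were haf-4 (6.91 and 0.808 RPKM) and haf-9 (12.3 and 5.26), half-transporters of intestinal cells, with pgp-9 and pgp-3.

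Listed genes of nutrient uptake and of intestinal structure were mostly within 2-fold, although folt-2, swt-6, hrg-1 and hrg-4 above are uptake genes of other lists or of none. All 15 compared members of the intestinal transporter list lay within 2-fold, among them the peptide transporter pept-1 at 15.7 and 13.1 RPKM, as did all 18 subunits of the vacuolar ATPase, including the gut-specific vha-6 at 89.7 and 61.0. Among 17 brush border and filament genes ifo-1 (4.47 and 0.974 RPKM) and ifd-1 (1.88 and 0.141) were lower and the others lay within 2-fold. The microvillar actin act-5 was at 154 and 89.9 RPKM, and the filament gene ifb-2 at 26.6 and 29.2. Of 13 compared intestine markers, 2 were lower, 1 was higher and 10 lay within 2-fold, with a median log2 ratio of -0.24. The lower ones were mtl-1 and the gut esterase ges-1 (18.3 and 6.65 RPKM), and the higher one was elt-2 itself. In the hypoxia pair 2 of the 13 were lower and 2 higher, with a median of 0.33. All 19 compared regulators of intestinal genes other than elt-2 lay within 2-fold.

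Markers of other tissues were given the same count. No compared marker of body wall muscle (10), neurons (9), germline and oocytes (10), eggshell (14) or sperm (24) passed 2-fold, with medians of -0.12, -0.11, 0.19, 0.17 and -0.54. Sperm markers were near the floor, with summed levels of 71.3 and 48.0 RPKM. The 7 compared embryo markers had a median of -0.76, with summed levels of 379 and 239 RPKM, and among them skr-7 was at 202 and 138 and tbx-37 at 9.13 and 4.10. The part of embryo and sperm transcripts in the results above was not tested. Of 4 compared pharynx markers 1 was lower, phat-6 (5.69 and 1.70 RPKM), with a list median of -0.48, and none of 3 epidermis markers passed 2-fold (median -0.28). Ribosomal proteins (74), proteasome subunits (31) and genes of the citric acid cycle and respiratory chain (45) had no member past 2-fold.

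The 20 highest ratios at the same minimum level included many genes named only by their clone. F56C3.8 was at 3.38 and 80.6 RPKM, and its neighbour F56C3.9 at 4.49 and 19. In hypoxia F56C3.8 was nearly unlisted (0 and 0.741 RPKM) and not past 2-fold, while F56C3.9 was at 1.30 and 16.4. In normoxia glam-3 (deposited as F58F12.4) was at 1.14 and 20.6 RPKM, T19C9.8 at 13.1 and 95.2, C43D7.7 at 1.99 and 23.2, and B0024.4 at 9.61 and 47.9. Annotated members were fewer. The amylase gene C50B6.7, for starch digestion, was at 5.55 and 32.7 RPKM. Y38H6A.5 was listed at 0 in control and at 27.7 RPKM in the library labelled elt-2 RNAi. Insulin-like ins-7, outside these 20, was higher at 9.23 and 26.5 RPKM, whereas ins-29 was lower at 5.01 and 0.948. In the hypoxia pair ins-7 was at 69.6 and 44.4 RPKM, lower under the label but inside 2-fold. Of the 20, 13 were at least 2-fold higher in hypoxia as well.

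The hypoxia pair shares no library with the normoxia pair. In it, 562 of 10737 genes were at least 2-fold lower (5.23%) and 210 higher (1.96%) under that label. Of the 366 genes lower in normoxia that were also compared there, 273 were lower again, which is 74.6% of them and 56.6% of the 482 genes lower in hypoxia that were compared in normoxia. Of the 110 higher genes, 52 were higher again, 47.3% of them and 29.4% of the 177 higher in hypoxia. lec-10, dct-17 and cld-9 were among the genes past 2-fold in normoxia only, but the difference between pairs was not tested.

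**Figure D5:**
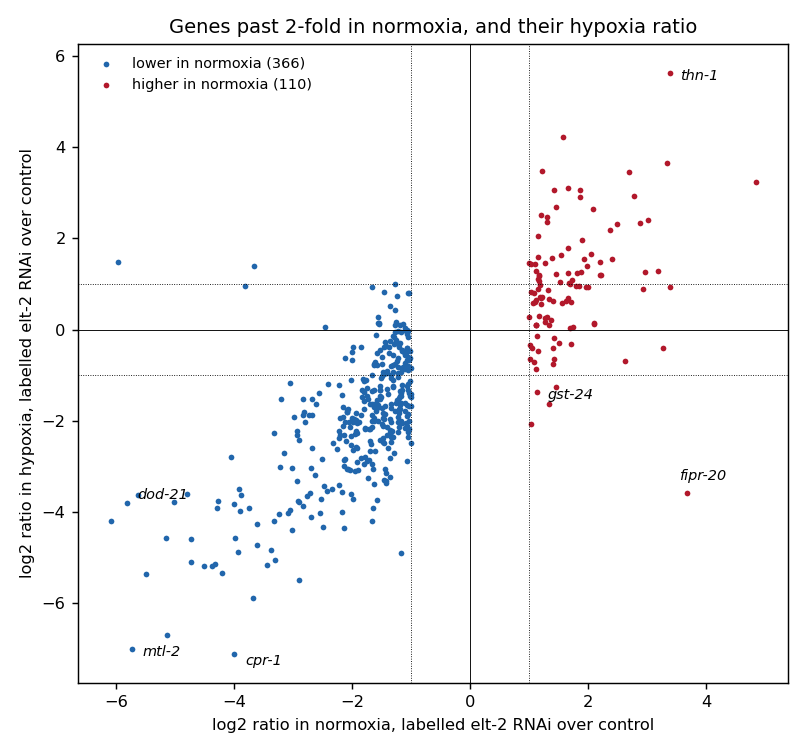
log2 ratio, labelled elt-2 RNAi against control, in normoxia (horizontal axis) and hypoxia (vertical axis) for the 366 lower (blue) and 110 higher (red) genes of the normoxia pair that were compared in both, with dotted lines at 2-fold. Most blue points lie in the lower left, and 90 of the 110 red points lie above 0 on the vertical axis. The short gene fipr-20 (129 bases) stands alone at the lower right.

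Across all 4 libraries, an additive fit with limma gave the average RNAi effect over both oxygen levels, the only test available for the label. Its error term is the difference of that effect between the oxygen levels, not a spread of replicates. At a Benjamini-Hochberg adjusted p of at most 0.05 it called 104 of 10655 genes lower (0.976%) and 14 higher (0.131%), of which 98 and 12 were past 2-fold the same way in normoxia. Both counts were 0 when the mean-variance trend was dropped (with 1 residual degree of freedom) and 0 with no filter on low values, so each call rests on those choices. The lowest adjusted p was that of clec-85, at 0.00838, with an average log2 effect of -5.43. limma adjusted p-values were 0.0214 for sysm-1, 0.0214 for asp-2, 0.0264 for mtl-2 and 0.0342 for cpr-6, but 0.115 for cpr-1 and 0.224 for elt-2.

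The authors' deposited table for this pair calls 67 loci, 63 of them lower (0.317% of 19852) and 4 higher (0.0201%). This is a test of 1 library against 1 library and compares those libraries, not the conditions. It includes 13 of the 20 lowest and 3 of the 20 highest genes named here, and within the 10338 compared genes its calls fall on 54 lower and 3 higher ones.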

How the data were processed

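RNA of 4 whole-animal libraries, 1 per group by sample title, was sequenced as 100 bp paired-end reads on a single lane, per the labels' protocols. The authors deposited RPKM for each gene, per the file headers, in 6 tables, each with their p-value and FDR-adjusted p-value for 1 library against another. TopHat2 2.0.8b, Cufflinks 2.1.1 and ce10 are named in the submitters' processing notes. Annotation, read filters, strand and the handling of multiply mapped reads are not given in sources used here. Read depth is unknown, and intervals for counting error could not be set. Each library had equal values in every table (0 differing). Coordinates are those of the files, on ce10. Current names came from tables of the WBcel235 assembly, with 18854 of 19852 loci matched, and 20 loci with conflicting name and accession kept the deposited name and entered no list.

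Ratios were log2((RPKM + 1)/(RPKM + 1)), labelled elt-2 RNAi over control, for loci naming 1 gene with no status FAIL, HIDATA or LOWDATA and a pair mean of at least 1 RPKM. Genes past 2-fold were counted. limma 3.58.1 in R 4.3.3 fitted log2(RPKM + 1) of the 4 libraries with additive oxygen and RNAi terms and a mean-variance trend, with adjustment by Benjamini-Hochberg. This fit was also run on simulated data with equal noise for all genes and equal effects at both oxygen levels. That setting is simpler than these data, so the run does not bear on the calls given here. The error term of the limma fit, with 1 residual degree of freedom, is the difference of the RNAi ratio between the oxygen levels. A gene whose ratio differs between oxygen levels is therefore given a wider error. Nothing says that libraries came from separate cultures, so the limma p-values do not measure variation between cultures, and that difference may be partly technical. Members and the 63 gene lists were chosen with earlier results of these data known. Named genes are elt-2, the 20 lowest and 20 highest ratios at a mean of at least 5 RPKM, and the 6 largest absolute ratios of a list (all members up to 12). Others named were chosen after their values were seen. Alternatives were other pseudocounts (0.1 and 5 RPKM), low-value filters, median centring, a length trend removed over 501 genes, keeping loci that name several genes, only the status OK, and 4-fold.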

Additional observations from a re-analysis of the deposited data

Results flagged for a closer look

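Among genes compared in both pairs, 8 were past 2-fold in opposite directions in normoxia and hypoxia, each with 1 library per group, and none of these differences was tested. The nearly read-length locus of F46A8.7 had log2 ratios of -5.96 in normoxia and 1.48 in hypoxia, F09C8.1 of -3.66 and 1.40, and F22E5.1 of -1.27 and 1.01. In the opposite sense, the fungus-induced gene fipr-20 had 3.67 and -3.58, being listed at 0 in control RNAi normoxia and in elt-2 RNAi hypoxia. At 129 bases, fipr-20 too is little longer than a read, so its values are uncertain. The short peptide gene nspe-7 had 1.46 and -1.26, H23N18.5 had 1.33 and -1.64, the glutathione S-transferase gene gst-24 had 1.13 and -1.37, and the transthyretin-related ttr-37 had 1.02 and -2.08.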

How the results depend on the processing

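The 383 lower and 130 higher genes became 197 and 52 with a pseudocount of 5 RPKM, 240 and 62 at a mean of at least 5 RPKM, and 117 and 29 at 4-fold. The 273 lower and 52 higher genes shared with the hypoxia pair became 156 and 20, 179 and 24, and 87 and 10 under the same settings. The 57 lower genes next to a lower gene became 93 with a pseudocount of 0.1 RPKM, 28 with 5 RPKM, 37 with no filter, 36 at a mean of at least 5 RPKM and 15 at 4-fold. The log2 ratio of elt-2 was 0.98 with a pseudocount of 5 RPKM, inside 2-fold. limma called 0 lower and 0 higher genes without the mean-variance trend, again 0 and 0 with no filter, and 45 and 6 with a pseudocount of 5 RPKM. In the remaining 41 alternatives for these results the value kept its side of 2-fold, or the count stayed within 1.5 times, and no named gene or list median past 2-fold changed sign. With no filter, which admits genes listed at or near 0, the saposin-like median was -0.08, the aspartic protease median -0.41 and the haem gene median -0.33. The other causes were not tested. The share of promoters with a GATA motif was planned and not run, for want of sequences. No paired analysis was possible because the labels give no replicate numbers and each group has 1 library, and for the same reason no replicate could be left out.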

Other observations

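Lower genes were unevenly placed among the chromosomes. They made up 6.54% of compared genes on chromosome V, 4.93% on X and 4.37% on IV, against 2.72% on II, 2.14% on III and 1.62% on I. Genes higher by 2-fold or more were also most frequent on V (2.3%) and least frequent on I (0.504%). Lower genes had a median transcript length of 1134 bases and higher genes 832, against 1378 over all compared genes with a length.

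Counts of other families are given against the 3.7% of all compared genes that were lower and the 1.26% that were higher. Among 43 transthyretin-related genes, which encode secreted proteins, ttr-46 (228 and 39.7 RPKM), ttr-48, ttr-36 and ttr-35 were lower and ttr-37 was higher. Of 47 compared cuticle collagens, col-129 (11.1 and 3.43 RPKM), col-147 and col-81 were lower and none was higher. Of 75 neuropeptide genes only nlp-41 was lower, at 4.6 and 1.6 RPKM. Of 14 genes that regulate or respond to the hypoxia factor HIF-1, only the flavin monooxygenase gene fmo-2 was lower, at 2.42 and 0.625 RPKM. All 17 endoplasmic reticulum chaperone and stress sensor genes lay within 2-fold, as did 20 of 21 cytosolic heat shock genes, with hsp-12.3 lower at 4.7 and 1.73 RPKM. F-box genes, a large and variable family, had 6 lower and 1 higher of 170 compared.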
